A study of Homo sapiens with 12 samples.

Results

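The genes described here are 9 enzymes that make NAD or convert it to NADP (NAMPT, NAPRT, NMNAT1, NMNAT2, NMNAT3, NMRK1, QPRT, NADSYN1 and NADK) and NNMT, which methylates nicotinamide. They were taken by name from the normalized counts table, where each has 1 row, and make up 10 of its 36601 genes. RNA was measured in KP4, an established human pancreatic ductal adenocarcinoma cell line. The cells were kept for 24 h with DMSO (vehicle), with 10 mM metformin (Met), with 5 nM FK866 (FK), or with 10 mM metformin and 5 nM FK866 together (Met+FK), and 3 libraries were made per treatment. Metformin is an inhibitor of mitochondrial complex I, and FK866 inhibits the NAMPT enzyme. FK866 acts on the protein, so a change in NAMPT RNA is no measure of the drug's action. A single line was sequenced at a single time.

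NAD carries electrons in oxidation and reduction reactions. Enzymes that cleave it, among them sirtuins, PARPs and NAD glycohydrolases, leave free nicotinamide, and cells rebuild NAD by several routes. In the salvage route, NAMPT joins nicotinamide to phosphoribosyl pyrophosphate (PRPP) to give nicotinamide mononucleotide (NMN). NMRK1 makes NMN from nicotinamide riboside. In the Preiss-Handler route, NAPRT turns nicotinic acid into its mononucleotide, and QPRT makes the same mononucleotide from quinolinate at the end of the kynurenine route from tryptophan. The 3 NMNAT enzymes then transfer the adenylyl group, NMNAT1 in the nucleus, NMNAT2 at the Golgi and in the cytosol, and NMNAT3 in mitochondria. NADSYN1 amidates the product of the nicotinic acid branch to NAD, and NADK phosphorylates NAD to NADP. NNMT removes nicotinamide from this cycle by methylating it with S-adenosylmethionine.

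The genes lie on 7 chromosomes of hg38, at the table's positions. NAMPT is at chr7:106248298-106286326 on the minus strand, NMNAT2 at chr1:183248237-183418380 on the minus strand, and NNMT at chr11:114257787-114313285 on the plus strand. Promoter sequences from RefSeq (GRCh38.p14, 250 bases before the RefSeq start, first entry per gene) were found for 7 of the 10 genes. RefSeq starts can differ from the table's positions. The stretches of NAMPT, NADK and QPRT lie wholly inside the positions that the table gives for these genes. All 7 were searched on both strands for the letters CACGTG (E-box), TGANTCA (AP-1), GGGCGG (GC box) and CCAAT. A GC box was found in 5 of the 7, beside 42.3% of all 27305 promoters, and NAMPT held 3 of them. The E-box and AP-1 letters were found in 0 of the 7, beside 6.49% and 6.6% of all promoters, and CCAAT in 1, that of NMNAT1, beside 33.0%. The promoter of NMNAT2 is printed because NMNAT2 had the highest fold change with Met. It lies at chr1:183418381-183418630, is given 5′ to 3′ on the minus strand, has a GC content of 56.8% and is all in lower case because none of the 4 motifs matched in it.
NMNAT2 promoter: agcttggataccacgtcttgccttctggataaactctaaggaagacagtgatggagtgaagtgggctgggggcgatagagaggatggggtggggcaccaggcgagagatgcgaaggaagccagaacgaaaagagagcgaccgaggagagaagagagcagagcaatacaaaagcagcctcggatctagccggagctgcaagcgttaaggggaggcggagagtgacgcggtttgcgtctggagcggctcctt

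The libraries held 30667735 to 41052203 counted read pairs, and every pair of replicates differed by more than counting noise (a chi-square of at least 4.29 per degree of freedom). Of the epithelial markers checked, KRT18 (mean of 18307 normalized counts in DMSO), SOX9 (3781) and KRT8 (3156) were high. KRT7 (281), MUC1 (104), KRT19 (56.5) and CDH1 (28.5) were much lower, and EPCAM (7.69) was near 0. Of the 6 mesenchymal markers, VIM averaged 115708, FN1 354, COL1A1 145 and PDGFRB 16.0, while DCN was at 0 and LUM averaged 0.33. The 5 acinar markers were at 0 in all 3 DMSO libraries, as was CD3E of T cells, while the leukocyte marker PTPRC averaged 244. The other immune markers, CD68 and LYZ, averaged 944 and 0.66 in DMSO. Of the endothelial markers, VWF averaged 38.2, PECAM1 7.08 and CDH5 4.91 in DMSO. Of the endocrine markers, INS, GCG and SST were at 0 in DMSO and CHGA averaged 0.33. With Met, 2 of the 7 tested epithelial markers were higher and 3 lower, and of 4 tested fibroblast markers 2 were lower. The immune markers tested, PTPRC and CD68, and the only endothelial marker tested, VWF, were also lower with Met. In that comparison 50.9% of all genes were called. The part of these markers in the results was not tested. Fewer cells of a kind and less RNA per cell cannot be told apart in these bulk samples.

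To order the genes by level, normalized counts were divided by the length in kilobases (kb) of the canonical transcript. In DMSO, NADK had 788 ± 33.7 normalized counts per kb (SD, n = 3) and NADSYN1 752 ± 16.3, and their libraries overlapped. NAMPT followed with 424 ± 55.9 per kb. NNMT (147 ± 5.12) lay above NMNAT1 (131 ± 6.58), with no overlap between libraries, and NMRK1 (84.5 ± 14.7) lay below both. NAPRT (22.3 ± 2.52) and NMNAT2 (16.6 ± 2.25) were low and did not overlap, and QPRT had 1.64 ± 0.89 per kb. The order rests on the length used. Over the union of all annotated exons, which is 23584 bases for NAMPT and 16263 for NADSYN1, the levels per kb were 458 for NADK, 124 for NADSYN1, 114 for NNMT, 106 for NMNAT1 and 78.4 for NAMPT. With that length the libraries of NAPRT (11.8 to 14.8 per kb) and NMNAT2 (11.0 to 14.0) overlapped.

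**Figure D1:**
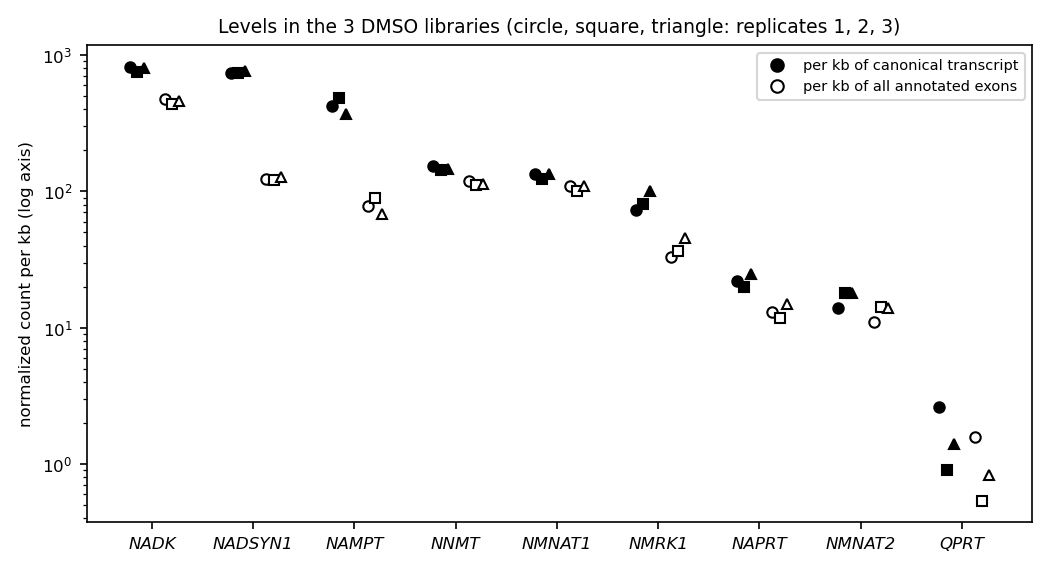
Normalized counts per kb (log axis) of 9 genes in the 3 DMSO libraries. Filled symbols divide by the canonical transcript and open symbols by all annotated exons. NMNAT3 is at 0 in DMSO and not drawn. NADK leads with both lengths (788 and 458), while NAMPT moves from 424 to 78.4.

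NMNAT3 and QPRT were at the lower limit of detection and were not tested. NMNAT3 had no read pair in 11 of the 12 libraries and 1 read pair in Met+FK replicate 1. A count of 0 still allows up to 3 read pairs in a library of this size, a limit that covers counting error only. QPRT had 5, 2 and 3 read pairs in DMSO, 5, 1 and 0 in FK, 4, 1 and 1 in Met, and 3, 7 and 3 in Met+FK. The values of the 4 treatments overlap, and a difference in QPRT was not detectable at this depth. NMNAT3 and COPB2-DT, a lncRNA on the opposite strand, share part of the locus, as do QPRT and SPN on the same strand, and the strand setting of the counting is not given in the sources used here.

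The other 8 genes passed the filter of a mean of at least 10 normalized counts over the 12 libraries. The test was limma-trend, on log2 values with a pseudocount of 1, adjusted by the Benjamini-Hochberg method over 15376 genes, and called at an adjusted p under 0.05. Log2 fold changes are on this scale, with their standard error (SE). With Met, 5 of the 8 rose (NMNAT2, NNMT, NAMPT, NMRK1 and NMNAT1), 2 fell (NAPRT and NADK), and NADSYN1 was not called. Metformin moved a large share of the transcriptome, since 50.9% of all genes tested were called, 24.9% as higher and 25.9% as lower. With a fold over 1.5 required as well, 3 of the 8 were higher (NAMPT, NMNAT2 and NNMT) and 1 was lower (NAPRT), beside 23.0% of all genes (12.8% higher and 10.2% lower). The Met and DMSO libraries did not overlap for these 7 called genes, beside 27.5% of all genes with every Met library higher and 29.4% with every Met library lower. The median log2 fold change of the 8 was 0.45, beside 0.01 over all genes. With libraries scaled to the same total, the median of all genes moved to 0.13. With Met+FK, 5 of the 8 rose (NNMT, NMNAT2, NAMPT, NMRK1 and NMNAT1) and 2 fell (NAPRT and NADK), beside 52.2% of all genes called (26.1% higher and 26.1% lower). With the fold threshold 3 were higher and 1 lower, beside 25.1% (13.7% higher and 11.3% lower). The Met+FK and DMSO libraries did not overlap for the 7 called genes either, beside 30.5% of all genes with every Met+FK library higher and 30.4% with every one lower. Both comparisons use the same DMSO libraries.

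**Figure D2:**
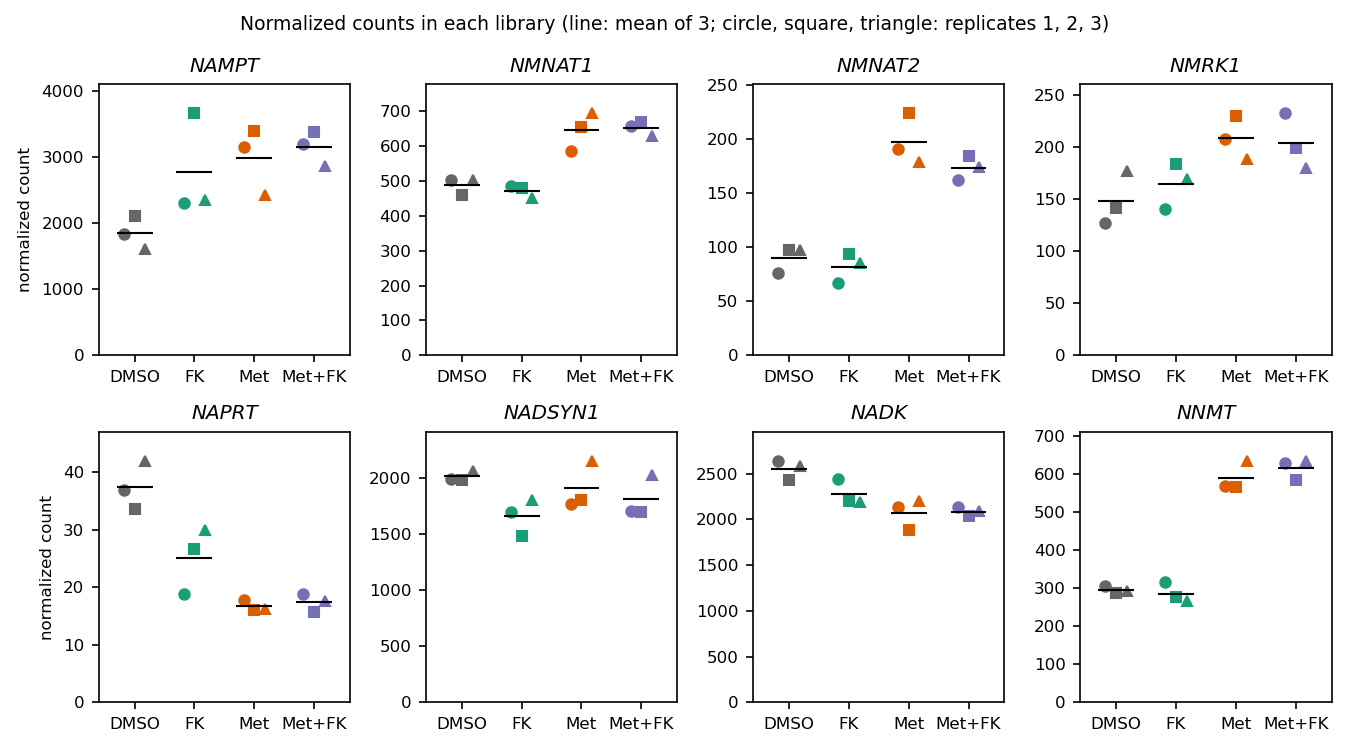
Normalized counts of the 8 tested genes in each library, on axes that start at 0. Symbols mark replicates 1, 2 and 3, and lines the means of 3. All Met and Met+FK libraries lie above all DMSO libraries for NAMPT, NMNAT1, NMNAT2, NMRK1 and NNMT, and below them for NAPRT and NADK.

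NAMPT, the rate-limiting enzyme of the salvage route and the target of FK866, rose with metformin and with both drugs. Its normalized counts were 1830.3, 2102 and 1615 in DMSO (replicates 1, 2 and 3) and 3159.6, 3392 and 2432 in Met. In FK they were 2307, 3662 and 2351, and in Met+FK 3198, 3382 and 2864. All 9 treated libraries lay above the 3 DMSO libraries. For 17.2% of all genes tested every FK library lay above every DMSO library. The FK group had the widest spread, with replicate 2 far above replicates 1 and 3. The log2 fold change was 0.69 for Met (SE 0.16, adjusted p = 0.00270, a fold of 1.61) and 0.77 for Met+FK (SE 0.16, adjusted p = 0.00112, a fold of 1.71). For FK alone it was 0.56 (SE 0.16, adjusted p = 0.0333, a fold of 1.47). GENCODE 44 lists 3 processed pseudogenes of NAMPT that have no row in the table, so reads shared with them are uncertain. A lncRNA on the opposite strand at the NAMPT locus averaged 29.7 normalized counts.

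The FK call of NAMPT was lost without some single libraries and after correction for base composition. The NAMPT transcript has a GC content of 34.4%, beside a median of 48.5% over the genes tested. In each library, the deviation of log2 values from the gene's mean was regressed on GC content. The slope per 10% GC was 0.20, 0.04 and 0.18 in DMSO, 0.00, −0.25 and −0.02 in FK, −0.08, −0.14 and 0.08 in Met, and −0.02, −0.05 and 0.06 in Met+FK. In each of the 4 treatments, replicate 2 had both the lowest slope and the highest NAMPT count. After subtraction of each library's trend on GC content and length (the GC trend), the log2 fold change of NAMPT was 0.12 for FK (adjusted p = 0.217), 0.33 for Met (adjusted p = 0.000233) and 0.49 for Met+FK (adjusted p = 2.96e-06). The FK value was also not called without FK replicate 2 (0.34, adjusted p = 0.140), without DMSO replicate 1 (adjusted p = 0.124) and without DMSO replicate 3 (adjusted p = 0.107). Whether GC content accounts for the FK difference was not tested.

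NMNAT2, the cytosolic adenylyltransferase, more than doubled with metformin from a low level. It had 76.2, 97.5 and 97.2 normalized counts in DMSO and 191, 224 and 179 in Met. In Met+FK the values were 162, 185 and 175, and in FK 67.0, 93.8 and 84.9. The Met and Met+FK libraries all lay above those of DMSO and FK, which overlapped each other. Against DMSO the change on the log2 scale was 1.13 for Met (SE 0.15, adjusted p = 3.33e-05), 0.94 for Met+FK (adjusted p = 0.000135) and −0.14 for FK (adjusted p = 0.491).

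NMNAT1, the nuclear enzyme, rose less. Its counts were 502, 460.1 and 503 in DMSO, 485, 479.5 and 452 in FK, 587, 655 and 694 in Met, and 659, 670.5 and 628 in Met+FK. Again DMSO and FK overlapped, and both lay below the other groups. On the log2 scale NMNAT1 rose by 0.40 for Met (SE 0.09, adjusted p = 0.00177) and 0.42 for Met+FK (adjusted p = 0.00119). The 95% interval of the Met change was 0.21 to 0.59 for NMNAT1 and 0.80 to 1.45 for NMNAT2, which do not overlap. GENCODE 44 lists 5 processed pseudogenes of NMNAT1 that have no row in the table.

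NMRK1, the riboside kinase, had 127, 141 and 177 normalized counts in DMSO and 208, 229.6 and 189 in Met. In FK it had 141, 184 and 169, and in Met+FK 232, 199 and 179.5. The Met group lay just above the DMSO group, with 189 against 177 at the nearest. NMRK1 had a log2 fold change of 0.50 with Met (SE 0.15, adjusted p = 0.0125) and 0.46 for Met+FK (SE 0.15, adjusted p = 0.0193). The Met value was not called without DMSO replicate 1 (adjusted p = 0.0665) or Met replicate 2 (adjusted p = 0.0568). That for Met+FK was not called without DMSO replicate 1 (adjusted p = 0.0941), DMSO replicate 2 (adjusted p = 0.0514) or Met+FK replicate 1 (adjusted p = 0.0914).

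NAPRT, the entry enzyme for nicotinic acid, fell with metformin. It had 36.9, 33.5 and 41.9 normalized counts in DMSO, which stand for 32, 34 and 41 read pairs. In Met it had 17.8, 16.1 and 16.2 (17, 17 and 16 read pairs), in Met+FK 18.8, 15.6 and 17.6, and in FK 18.9, 26.5 and 29.8. The 9 treated libraries all lay below the 3 DMSO libraries, and the FK libraries lay between DMSO and both metformin groups. For 21.6% of all genes tested every FK library lay below every DMSO library. NAPRT had a log2 fold change of −1.12 for Met (SE 0.22, adjusted p = 0.000820) and −1.07 for Met+FK (SE 0.22, adjusted p = 0.00107). For FK it was −0.58 (SE 0.22), which was not called (adjusted p = 0.0706). The NAPRT transcript is rich in GC (67.8%), and with the trend removed the values were −0.97 for Met (adjusted p = 0.00229) and −0.35 for FK (adjusted p = 0.372).

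NADSYN1, NAD synthetase, had 1992, 1986 and 2064 normalized counts in DMSO, 1771, 1808 and 2154 in Met, 1710.1, 1701 and 2027 in Met+FK, and 1693, 1487 and 1806 in FK. Met replicate 3 lay above every DMSO library and the other two Met libraries below them. With a log2 fold change of −0.08, Met did not pass the test (adjusted p = 0.514, 95% interval −0.29 to 0.13). Its sign turned with libraries scaled to the same total (0.04) and with the GC trend removed (0.07). For FK it was −0.28 (SE 0.10, adjusted p = 0.0545). Every FK library lay below every DMSO library, as for 21.6% of all genes tested.

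NADK, the cytosolic NAD kinase, fell by a small amount with metformin. It had 2639, 2429 and 2582 normalized counts in DMSO, 2136, 1887 and 2196 in Met, 2132, 2034 and 2088 in Met+FK, and 2436, 2203 and 2190.2 in FK. The Met and Met+FK libraries all lay below those of DMSO. The log2 fold change was −0.30 for Met (SE 0.08, adjusted p = 0.00507) and −0.29 for Met+FK (SE 0.08, adjusted p = 0.00613). With libraries scaled to the same total, the Met value was −0.18 and not called (adjusted p = 0.0554). After removal of the GC trend it was −0.16 for Met (adjusted p = 0.0303) and −0.19 for Met+FK (adjusted p = 0.0127), both called.

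NNMT, which draws on nicotinamide and a methyl donor, doubled with metformin. It had 307, 287 and 294 normalized counts in DMSO and 316, 276 and 266 in FK. In Met it had 568, 567 and 635, and in Met+FK 629, 585 and 635. The 6 libraries with metformin lay far above the 6 without it, and the libraries of DMSO and FK overlapped. The log2 fold change was 0.99 for Met (SE 0.10, adjusted p = 1.30e-06), 1.06 for Met+FK (SE 0.10, adjusted p = 5.23e-07) and −0.05 for FK (adjusted p = 0.707, 95% interval −0.26 to 0.15). Of the 8 genes, NNMT had the smallest adjusted p for Met.

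**Figure D3:**
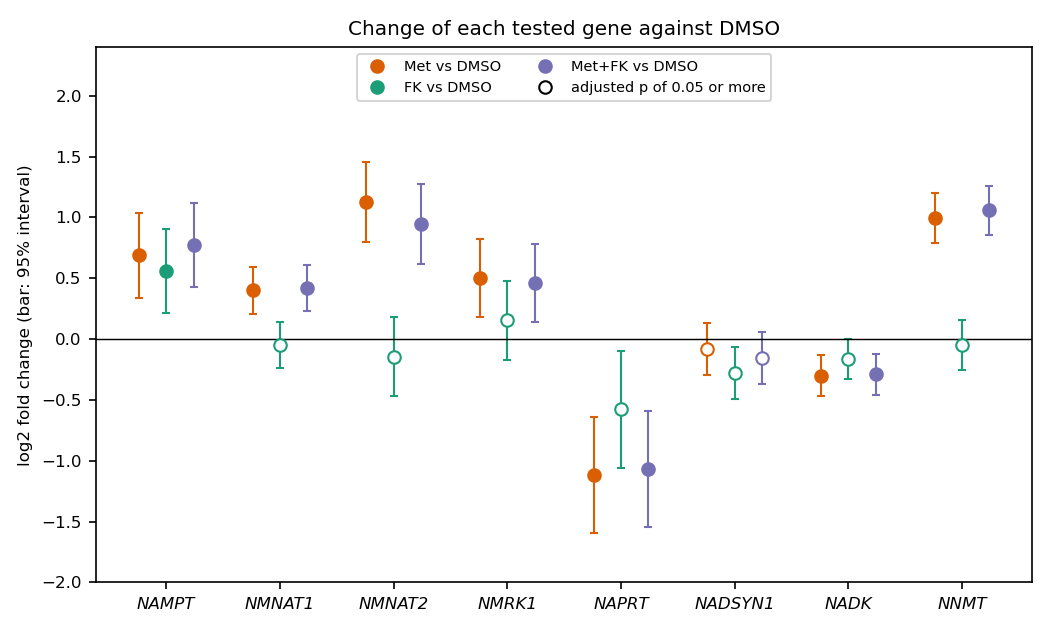
Log2 fold change against DMSO of the 8 tested genes, with 95% intervals from limma-trend. Filled points have an adjusted p under 0.05. Met and Met+FK lie side by side for each gene, from 1.13 and 0.94 for NMNAT2 to −1.12 and −1.07 for NAPRT. NAMPT is the only filled FK point (0.56).

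With FK alone, 1 of the 8 genes was called, NAMPT, beside 21.1% of all genes tested (11.3% higher). That share was unstable, at 0.865% without DMSO replicate 1, 1.53% without FK replicate 2, 2.47% without DMSO replicate 3, 0.989% in a fit of the FK and DMSO libraries alone and 32.1% without FK replicate 1. With the fold threshold it was 0 of the 8, beside 3.49%. At an unadjusted p under 0.05 there were 3 (NAMPT, NADSYN1 and NAPRT). The share of all genes was not counted there, and is no lower than the 21.1% called with adjustment. edgeR's quasi-likelihood test called 1, beside 19.7% of all genes, and DESeq2 called 2, beside 26.6%. No label says that replicate numbers pair the libraries. DMSO was read as paired with FK only from the correlation of their deviations. With the replicate number as a block, 3 of the 8 were called: NAMPT, NADSYN1 (adjusted p = 0.00439) and NADK (adjusted p = 0.0371). That fit called 44.6% of all genes. With the GC trend removed, 0 of the 8 were called for FK, beside 10.6% of all genes.

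The FK log2 fold changes of the 8 genes fell almost in the order of their GC content. They ran from 0.56 for NAMPT (34.4% GC) and 0.15 for NMRK1 (40.5%) through −0.05 for NMNAT1 (45.7%), −0.14 for NMNAT2 (48.2%) and −0.05 for NNMT (48.8%) to −0.16 for NADK (56.7%), −0.28 for NADSYN1 (58.0%) and −0.58 for NAPRT (67.8%). Across these 8 genes, which share the same 6 libraries and are not independent replicates, Pearson's r was −0.95 and Spearman's rho −0.98. Across 15324 genes, r was −0.60 and rho −0.67. With the trend over all genes removed, r for FK was −0.0034 across all genes and −0.72 across the 8 (rho −0.48). NAMPT (0.12) and NAPRT (−0.35) were then still at the ends, but the order between them was lost. NNMT (0.014) and NADK (−0.0035) lay above NMRK1 (−0.036), NMNAT1 (−0.14) and NMNAT2 (−0.18). For Met, r was −0.78 across the 8 (−0.64 with the trend removed) and −0.29 across all genes, and NMNAT2 and NNMT, near the median GC content, changed most in the upward direction. With the trend removed, NAMPT, NMNAT1, NMNAT2, NMRK1, NAPRT, NADK and NNMT were each again called for Met, in the same direction.

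**Figure D4:**
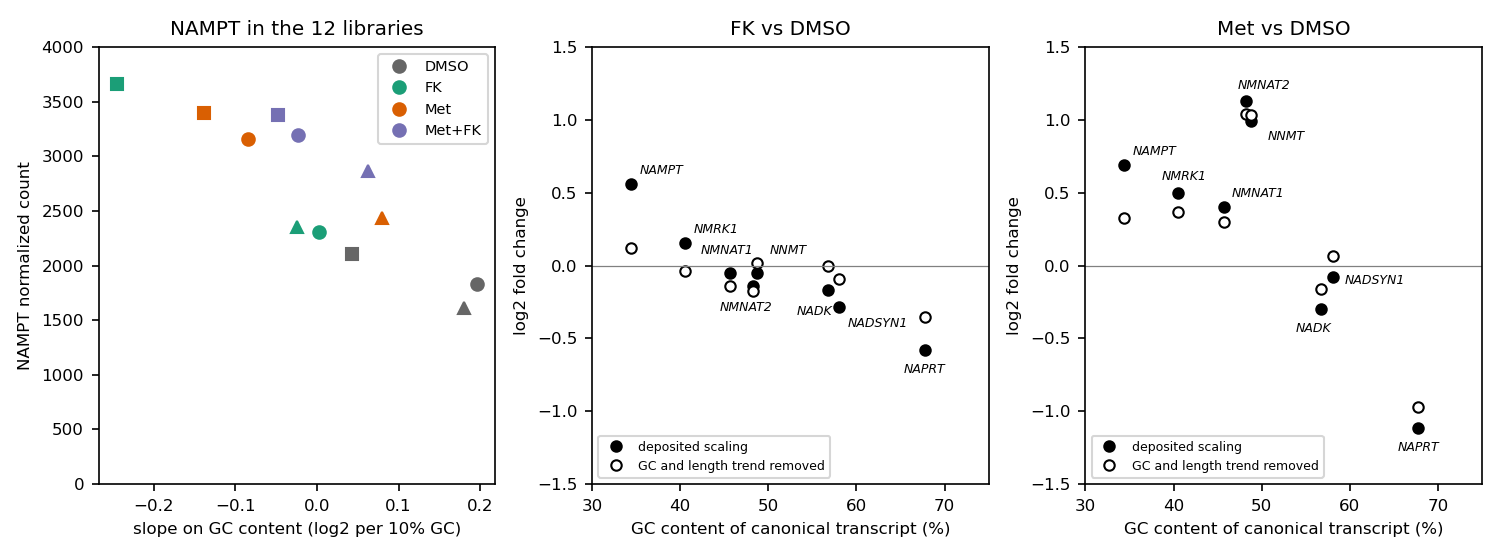
Left, NAMPT normalized counts of the 12 libraries against each library's slope of log2 values on GC content. Circles, squares and triangles are replicates 1, 2 and 3. Middle and right, log2 fold change of the 8 genes against the GC content of their transcript for FK and Met, with deposited scaling (filled) and with the GC and length trend removed (open). The FK value of NAMPT moves from 0.56 to 0.12, that for Met from 0.69 to 0.33, and NNMT stays near 1 for Met (0.99 and 1.03).

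When FK866 was added to metformin, no gene of the set passed the test. In Met+FK against Met, limma-trend called 0 of the 8, beside 0.0976% of all genes. edgeR and DESeq2 also called 0, beside 0.104% and 0.481% of all genes. At an unadjusted p under 0.05 there were 0, for which no share of all genes was counted. The log2 differences ran from −0.18 for NMNAT2 (95% interval −0.51 to 0.15) to 0.08 for NAMPT (95% interval −0.27 to 0.43). The interval was −0.14 to 0.27 for NNMT and widest for NAPRT, −0.43 to 0.53. Differences inside these limits were not detectable here.

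Met+FK against FK gives the metformin effect in the presence of FK866. NNMT (1.11, adjusted p = 4.86e-07), NMNAT2 (1.09, adjusted p = 5.29e-05) and NMNAT1 (0.47, adjusted p = 0.000692) were higher, 3 of the 8, beside 42.1% of all genes (20.5% higher). NAMPT differed by 0.21 (adjusted p = 0.315), and by 0.43 without FK replicate 2 (adjusted p = 0.0120). With the GC trend removed, 7 of the 8 were called, NAMPT at 0.37 (adjusted p = 8.29e-05), beside 54.8% of all genes. In Met against FK, NNMT, NMNAT2 and NMNAT1 were again the 3 called, all higher, beside 36.7% of all genes (17.2% higher). All 8 were called with the GC trend removed, beside 50.7% of all genes. The count was 5 of the 8 with libraries scaled to the same total, beside 38.1%, and 5 without FK replicate 2, beside 37.7%.

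The interaction asks whether FK866 acts differently in the presence of metformin. It was called for 0 of the 8, beside 0.0585% of all genes. At an unadjusted p under 0.05 there were 0, for which no share of all genes was counted. edgeR and DESeq2 also called 0 of the 8, beside 0.065% and 4.52% of all genes. The share of all genes was 0.718% with the GC trend removed, and without FK replicate 1 the call was made for 1845 of the 15376 genes. In both fits it was made for 0 of the 8. NAMPT had −0.48 (SE 0.23, adjusted p = 0.175) and NAPRT 0.63 (SE 0.32, adjusted p = 0.189). These 2 genes were singled out after their values were seen. With the replicate number as a block the value of NAMPT was called (adjusted p = 0.0163), in a fit that called 32.0% of all genes. With the GC trend removed the value of NAMPT was 0.04 (adjusted p = 0.863).

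Other genes of NAD metabolism came from 5 lists. Of the 8 genes of the kynurenine route from tryptophan to quinolinate, 4 were tested. IDO1, IDO2, HAAO and ACMSD were below the filter, and IDO2 and ACMSD were listed at 0 in every library. None of the 4 was called with Met, beside 50.9% of all genes. KYNU, kynureninase, rose with FK (0.51, adjusted p = 0.0387), and KMO, the monooxygenase, fell with Met+FK (−0.93, adjusted p = 0.0197). KMO had few reads, with 10, 13 and 16 read pairs in DMSO and 6, 5 and 11 in Met+FK. Its call was lost with DESeq2 (adjusted p = 0.0730), without DMSO replicate 3 (adjusted p = 0.0772) and without Met+FK replicate 2 (adjusted p = 0.103). In FK, KMO had 27, 30 and 22 read pairs, above every DMSO library by normalized count too. KMO was not called for FK against DMSO.

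Of 13 genes that handle NAD and NADP elsewhere in the cell, 11 were tested and, with Met, 5 were higher and 2 lower, beside 50.9% of all genes called (24.9% higher and 25.9% lower). NADK2, the mitochondrial NAD kinase, rose by 0.77 on the log2 scale (adjusted p = 0.000402) while the cytosolic NADK fell. SLC12A8 (0.68, adjusted p = 0.0492) and NNT, the mitochondrial transhydrogenase (0.29, adjusted p = 0.0448), were also higher, but both calls were lost in most fits with 1 library left out. SLC12A8 had 8, 10 and 9 read pairs in DMSO, and was not called by edgeR (adjusted p = 0.0508) or DESeq2 (adjusted p = 0.156). NNT was −0.03 with the GC trend removed (adjusted p = 0.807). PNP, purine nucleoside phosphorylase, was lower (−0.68, adjusted p = 8.28e-05), as was NAXE, an epimerase that repairs damaged NAD(P)H (−0.34, adjusted p = 0.0117). With FK, NADK2 (0.46, adjusted p = 0.0371), ENPP1 (0.37, adjusted p = 0.0313) and PNP (−0.34, adjusted p = 0.0369) were called. These FK calls, and those of KYNU and PRPS2, were each lost without DMSO replicate 1, without DMSO replicate 3, without FK replicate 2, and with the GC trend removed.

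All 3 NAD glycohydrolases were tested. SARM1 was higher with Met (0.42, adjusted p = 0.0215), but was not called with the GC trend removed (0.23, adjusted p = 0.134). That call was also lost without DMSO replicate 1 (adjusted p = 0.102), Met replicate 2 (adjusted p = 0.0644) or Met replicate 3 (adjusted p = 0.0848). CD38 had −0.45 with Met (adjusted p = 0.0796), and was called with the GC trend removed (−0.70, adjusted p = 0.00567). It was lower with Met+FK (−0.67, adjusted p = 0.0134). That call was lost without DMSO replicate 3 (adjusted p = 0.0659) and without Met+FK replicate 1 (adjusted p = 0.0511).

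Of 4 tested genes for synthesis of PRPP, the sugar phosphate that NAMPT, NAPRT and QPRT use, 2 were lower with Met, beside 25.9% of all genes. PRPS1 fell by 0.83 on the log2 scale (adjusted p = 7.44e-07) and PRPS2 by 0.47 (adjusted p = 0.000594). Both were also lower with Met+FK (−0.86 and −0.58), and with FK PRPS2 was higher (0.26, adjusted p = 0.0495).

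Of 7 genes for supply of the methyl donor used by NNMT and for oxidation of nicotinamide products, 2 were higher and 1 lower with Met, beside 50.9% of all genes. MAT2A, which makes S-adenosylmethionine, was lower with Met (−0.59, adjusted p = 4.76e-05) and with FK (−0.48, adjusted p = 0.00687). In Met+FK it was lower by 1.05 against DMSO, with 6311, 6015 and 6652 normalized counts beside 8246, 8741 and 9160 in Met. The difference from Met (−0.46) was not called (adjusted p = 0.0509). It was called with the replicate number as a block (adjusted p = 0.00309, in a fit that called 0.780% of all genes), by edgeR (adjusted p = 0.0474) and by DESeq2 (adjusted p = 0.000715). Without the block, limma-trend called it with TMM scaling (adjusted p = 0.0367), with the same total (adjusted p = 0.0305) and with the GC trend removed (adjusted p = 0.00755). In all, 10 of 24 alternatives called it, among them 2 of the 12 fits with 1 library left out. AOX1, aldehyde oxidase (0.64, adjusted p = 0.00704), and AHCYL2 (0.40, adjusted p = 0.000695) were higher with Met. In Met+FK against Met, the main fit called 0 genes of the 5 lists.

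Among 11520 genes with a mean of at least 100, those whose log2 values followed NAMPT most closely over the 12 libraries were NFE2L2, MAP4K3 and MAN2A1 (Pearson's r of 0.991, 0.990 and 0.989). The mean of NFE2L2, a transcription factor of the antioxidant response, was 2736 normalized counts in DMSO, 4224 in FK, 4531 in Met and 4588 in Met+FK. These 3 transcripts also have a low GC content, between 39.5% and 42.1%. Those closest to NNMT were CARS, a cysteinyl-tRNA synthetase (r = 0.995), GOT1, the cytosolic aspartate aminotransferase (r = 0.994), and RGS3 (r = 0.994). The mean of GOT1 was 8498 in DMSO, 7604 in FK, 16243 in Met and 17923 in Met+FK. These correlations describe genes that share libraries and depth.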

How the data were processed

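Ribosomal RNA was depleted before sequencing, and the study's methods name cutadapt for trimming, STAR and hg38 for alignment, featureCounts for counting and DESeq2 for normalization. What the authors deposited is a signal of 0 or more, each gene's count of read pairs divided by the library's size factor. The smallest step in a library gave back its read pairs, and 100% of the recovered values were within 0.01 of a whole number. Column names gave the treatment and replicate of all 12 libraries. Nothing in the labels says that the 3 libraries of a treatment came from separate cultures, so p-values measure the spread between these libraries, which may be technical. The members and gene lists were chosen with earlier results of these data known. All 10 members were named, and from each list up to 5 genes, the called ones with the largest change with Met first. KYNU, KMO, ENPP1 and CD38 were named for calls with FK or Met+FK, after their values were seen.

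limma-trend (limma 3.58.1, R 4.3.3) was fitted once to log2 of the normalized count plus 1, for the 15376 genes that averaged 10 or more, with a mean for each of the 4 treatments. As alternatives, TMM scaling, libraries scaled to the same total, pseudocounts of 0.1 and 10, every gene above 0, genes with 10 or more in every library, the replicate number as a block, subtraction of a loess trend (span 0.3) on GC content and log length, edgeR 4.0.16 and DESeq2 1.42.0 on the recovered counts, only the libraries compared, a fold threshold of 1.5, and leaving out each library were tried. The alternatives for the interaction of NAMPT and NAPRT and for genes of the lists were added after the data were seen. The canonical transcript of GENCODE 44 gave GC content and length for 99.7% of the genes tested. To see whether replicate numbers pair the libraries, deviations from the treatment means were correlated across genes. Between DMSO and FK this gave 0.25, 0.42 and 0.22 for replicates 1, 2 and 3, and between Met and Met+FK 0.17, 0.20 and 0.23, all above 0.1. Every other pair of treatments had at least 1 correlation below 0.1. DMSO with FK, and Met with Met+FK, were therefore read as paired, from the values alone. With the GC trend removed, every correlation was above 0.1 between DMSO and FK and between FK and Met (0.12, 0.15 and 0.13), but not between Met and Met+FK (0.16, 0.095 and 0.075), so which treatments are paired depends on this step. The fits were tested on simulated counts before use.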

Additional observations from a re-analysis of the deposited data

How the results depend on the processing

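Of the 8 genes tested, the number called for Met against DMSO was 7 in the main analysis, as it was for Met+FK against DMSO, and 4 with the fold threshold in both. It was 6 for Met with libraries scaled to the same total (NADK lost), beside 53.1% of all genes. With 1 library left out it was 6 to 7 for Met and for Met+FK (NMRK1 lost). The share of all genes was then 42.4% to 54.5% for Met and 43.5% to 55.9% for Met+FK. For FK against DMSO the number was 2 with TMM scaling (21.7% of all genes) and with DESeq2 (26.6%), and 3 with the replicate block (44.6%). It was 0 with all genes above 0 (6.39%), with only the libraries compared (0.989%) and with the fold threshold (3.49%). With the GC trend removed it was 0 without the block (10.6%) and with it (19.9%). With 1 library left out it was 0 to 2 (0.865% to 32.1% of all genes). For Met+FK against FK it was 7 with the GC trend removed, without the block (54.8% of all genes) or with it (59.4%). For Met against FK it was 5 with libraries scaled to the same total (38.1% of all genes) and 4 with the replicate block (47.5%). It was 8 with the GC trend removed, without the block (50.7%) or with it (56.0%). With 1 library left out it was 3 to 5 (29.2% to 37.7% of all genes). For the interaction it was 1 with the replicate block (NAMPT), and the block otherwise changed the FK calls of NADSYN1 and NADK, the call of MAT2A in Met+FK against Met and that of SLC12A8 with Met (adjusted p = 0.0577) among the results given for each gene.

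Among the 8 genes, signs turned only for values that were not called. NADSYN1 with Met was 0.0405 with the same total and 0.0688 with the GC trend removed. With the GC trend removed, NMRK1 was −0.0359 and NNMT 0.0144 with FK, and the interaction of NAMPT was 0.0383. In Met+FK against Met, NMNAT1 was −0.000199 with TMM and −0.0208 with the same total. NADK was −0.00781 with TMM, −0.0285 with the same total and −0.0261 with the GC trend removed, where NMRK1 was 6.14e-05 and NAPRT −0.0285. NNT of the lists, called with Met, was −0.0292 with the GC trend removed. The values with the GC trend removed were the same with the block. With 1 library left out, Met+FK against Met ran from −0.0599 to 0.180 for NAMPT, −0.0476 to 0.0725 for NMNAT1, −0.140 to 0.0443 for NMRK1, −0.00755 to 0.118 for NAPRT, −0.158 to 0.0142 for NADSYN1 and −0.0553 to 0.0539 for NADK. The causes of these changes were not tested.

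Levels per kb in DMSO moved by more than 1 SD over the union of all exons, to 458 for NADK, 124 for NADSYN1, 114 for NNMT, 106 for NMNAT1, 78.4 for NAMPT, 38.4 for NMRK1, 13.2 for NAPRT and 13.0 for NMNAT2. Without 1 DMSO library or with TMM scaling they changed by less than 1 SD.

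NAPRT had 16 to 41 read pairs in a library and QPRT at most 7, which limits what could be resolved for both. RNA levels say nothing of enzyme amount or activity.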
